A study of Mus musculus with 24 samples.

Results

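These data cover mouse forelimb buds kept in culture with 10 µM tert-butylphenyl diphenyl phosphate (BPDP), a plasticizer and flame retardant of the organophosphate ester class, and compare the buds after 24 h with those after 3 h of culture. The 8 libraries, 4 at each time, were chosen by their labelled dose and time and are 8 of the 24 in the series. All groups are forelimb buds of CD1 mouse embryos taken on gestation day 13 and cultured. The other groups used here are buds in the vehicle DMSO at 3 h and 24 h, called control, and buds in 1 µM BPDP at 3 h and 24 h, each with 4 libraries. The 3 h and 24 h buds are different cultures, so a time change is a difference between groups and not a course followed in 1 bud. No label used here says whether the 4 replicates of a group came from separate litters or how many buds were pooled, so p-values here reflect only how far these libraries spread.

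A limb bud at this stage is a core of mesenchyme under a sheet of ectoderm. Mesenchymal cells condense, become chondrocytes that lay down type II collagen, and later enlarge into hypertrophic chondrocytes that make type X collagen and Indian hedgehog. Hedgehog ligands bind the receptor Patched, which frees Smoothened to signal and turns on Gli1, Ptch1 and Hhip. Since the signal turns them on, these genes serve as a readout of it. The products of Ptch1 and Hhip hold the signal back. Around the cartilage lie muscle precursors, vessels, nerves with Schwann cells, and macrophages that clear dying cells.

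Total counts ran from 14165947 to 19800595 in the 4 libraries at 3 h and from 15726057 to 19909986 at 24 h, within the range of the 24 libraries (14165947 to 20823058). Levels are given as CPM, counts per 1000000 of the library total, with no TMM factor (TMM is a scaling between libraries that edgeR estimates); fold changes carry that factor. Along the first principal component of the 8 libraries, with 43.1% of the variance, the 2 times lay apart. Along the second, with 19.1%, replicates 1 and 2 lay apart from replicates 3 and 4 at both times; the labels give no reason for that split. The order is named beside some of the genes that show it. The values of Gli1, Foxf2, Col2a1, Susd5, Runx2, Runx3, Csf1r, Cd68 and Timp2 given below put replicates 1 and 2 higher at both times. Those of Cyp1b1 put replicates 1 and 2 lower at both times. A control library and a 1 µM library, both at 3 h, stood apart from their groups. Control replicate 4 differed from the other control libraries by a chi-square per degree of freedom of 66.8 to 82.3, against 14.3 to 16.6 among those, and 1 µM replicate 3 by 62.9 to 82.4, against 11.5 to 15.6. A single gene took 4.46% and 5.36% of their counts, and at most 2.04% in any other library. Without the first, 834 genes changed in control where 1494 did with it, 355 genes differed between 10 µM and control where 432 did, and of the genes named below the differences of Runx3, Cyp51, Nsdhl and Bcan lost their calls. Without the second, 26 genes differed between 10 µM and 1 µM where 38 did, and the differences of Rrm2, Chac1 and Fdft1 lost theirs. The labelled tissue was checked against cartilage markers: Col2a1 was at 2044 CPM or more and Sox9 at 465 CPM or more in all 8 libraries.

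Culture time changed many genes under 10 µM BPDP. Of 15434 genes tested with edgeR's quasi-likelihood test, 4897 (31.7%) passed an adjusted p of 0.05: 2590 rose (16.8%) and 2307 fell (14.9%) from 3 h to 24 h. With a change of at least 2-fold as well, 491 rose (3.18%) and 580 fell (3.76%). The split depends on the scaling. Fold changes are relative to TMM-scaled libraries, and the TMM scaling of the 24 h libraries differed from that of the 3 h libraries by -0.109 on the log2 scale. With library totals alone, 1793 genes rose and 3630 fell. The median log2 change over all genes tested was -0.01, and the median size of a change was 0.26. With replicates 1 and 2 alone 2113 genes passed and with replicates 3 and 4 alone 4421, so counts for lists are given from all 8 libraries.

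In control buds 1494 of 15640 genes passed (9.55%), and in 1 µM BPDP 3417 of 15462 (22.1%). In control 5.45% of genes rose and 4.1% fell, and in 1 µM 12.2% rose and 9.9% fell. Counts of list members below are to be read beside these shares and those given for 10 µM. When all 24 libraries shared 1 estimate of the spread, 4683 genes passed in 10 µM, 3317 in 1 µM and 2739 in control. Of the genes that rose in 10 µM and were tested in both, 642 also rose in control, which is 25.0% of the 10 µM calls and 77.4% of the control calls. Of those that fell, 538 also fell in control (23.4% of the 10 µM calls and 84.2% of the control calls), and 3 risers and 10 fallers of 10 µM were called the other way in control. The difference between the 10 µM and the control time change passed its own test in 432 of 16691 genes (2.59%), 164 higher (0.983%) and 268 lower (1.61%) in 10 µM. Of the 268, 150 fell in both and 87 fell with a call in 10 µM alone; of the 164, 109 rose with a call in 10 µM alone and 28 rose in both. Every difference given below is on the log2 scale, the 10 µM time change minus that of control unless 1 µM is named. The split of these differences also moves with the scaling, with 70 higher and 303 lower by library totals.

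The sequences shown here are upstream windows of genes from lists described below, read from RefSeq's promoter table for GRCm38.p6 (the same assembly as mm10). Each window holds the 250 bases before the annotated start, 5′ to 3′ on the gene's strand, and capitals mark the motif found on either strand. Mki67 (chr7:135716380-135716629, minus strand) and Kif11 (chr19:37376132-37376381, plus strand) are shown for the mitotic genes. Their capitals mark the CHR element TTTGAA and the CCAAT box, each searched on both strands. Cdc6 (chr11:98907901-98908150, plus strand) is shown for the replication genes. Its capitals mark an E2F motif, searched on both strands as TTTCCCGC or TTTGGCGC. No matches overlap in the windows shown.
Mki67: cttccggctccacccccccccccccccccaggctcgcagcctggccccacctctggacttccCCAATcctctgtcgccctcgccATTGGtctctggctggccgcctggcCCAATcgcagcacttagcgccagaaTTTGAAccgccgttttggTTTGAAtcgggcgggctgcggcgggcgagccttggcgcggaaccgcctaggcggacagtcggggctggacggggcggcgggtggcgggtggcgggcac
Kif11: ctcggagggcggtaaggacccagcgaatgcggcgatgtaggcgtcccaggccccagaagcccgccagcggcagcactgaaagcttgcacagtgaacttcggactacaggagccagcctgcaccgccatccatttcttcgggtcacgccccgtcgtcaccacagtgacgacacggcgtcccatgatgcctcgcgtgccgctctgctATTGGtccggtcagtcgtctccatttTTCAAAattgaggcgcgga
Cdc6: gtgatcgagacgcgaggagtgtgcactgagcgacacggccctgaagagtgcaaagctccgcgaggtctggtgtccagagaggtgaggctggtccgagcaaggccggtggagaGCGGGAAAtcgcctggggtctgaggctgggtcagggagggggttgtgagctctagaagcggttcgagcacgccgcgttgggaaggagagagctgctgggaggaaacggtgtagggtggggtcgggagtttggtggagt
Among 18 of the 22 mitotic genes with a window, 8 (44.4%) held TTTGAA and 16 (88.9%) held CCAAT, against 18.3% and 37.5% of all 27025 genes with a window. CCAAT was not particular to the mitotic genes. It stood in 66.7% of replication, 68.4% of integrated stress response and 94.1% of cholesterol synthesis genes. In cartilage, contractile muscle and hedgehog target genes the share was 44.4%, 42.9% and 33.3%. An E2F motif stood in 4 of 15 replication genes (26.7%) and in 1.51% of all genes. A match is a description of these letters and not a bound site.

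Chac1 (chr2:119350992-119351241, plus strand), Nupr1 (chr7:126625471-126625720, minus strand) and Atf3 (chr1:191183334-191183583, minus strand) are shown for the integrated stress response, with the C/EBP-ATF response element TGATGNAA, where N is any base, in capitals as it reads on the gene's strand.
Chac1: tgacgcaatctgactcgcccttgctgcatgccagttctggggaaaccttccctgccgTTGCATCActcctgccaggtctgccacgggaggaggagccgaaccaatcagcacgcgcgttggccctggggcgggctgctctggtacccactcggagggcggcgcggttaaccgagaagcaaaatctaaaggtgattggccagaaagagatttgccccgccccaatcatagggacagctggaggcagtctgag
Nupr1: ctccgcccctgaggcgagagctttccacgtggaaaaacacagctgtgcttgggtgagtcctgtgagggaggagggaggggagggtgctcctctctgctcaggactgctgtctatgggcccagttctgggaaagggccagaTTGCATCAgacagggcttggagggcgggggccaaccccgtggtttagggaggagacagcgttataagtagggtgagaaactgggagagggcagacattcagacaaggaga
Atf3: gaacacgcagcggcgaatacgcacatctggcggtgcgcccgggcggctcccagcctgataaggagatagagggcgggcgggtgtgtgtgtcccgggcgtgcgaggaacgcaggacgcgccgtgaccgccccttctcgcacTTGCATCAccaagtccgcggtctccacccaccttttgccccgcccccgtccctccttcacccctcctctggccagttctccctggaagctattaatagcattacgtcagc
The element stood in 6 of 19 genes of that list with a window (31.6%) and in 3.91% of all genes. The letters GACCACCCA, bound by GLI proteins, were in none of the windows of 6 hedgehog targets, and 0.255% of all genes with a window held them. The absence says only that these letters are not in these windows.

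The hedgehog readout fell under 10 µM BPDP while its ligand gene rose. Gli1 and Ptch1 fell from 3 h to 24 h and rose in control, and Ihh, the gene for Indian hedgehog, rose 5.3-fold. Gli1 (chr10:127329889-127341589, mm10, minus strand), a zinc finger activator of the pathway, was at 48.9, 40.7, 23.4 and 25.7 CPM at 3 h and 2.76, 2.47, 0.122 and 1.46 CPM at 24 h. The groups did not overlap, and replicate 3 was lowest at both times. The fitted change was -4.20 on the log2 scale (SE 0.56, adjusted p = 0.00148); in control Gli1 went from 60.6 ± 13.5 CPM to 106 ± 21.4 CPM (SD, n = 4), a rise of 0.82 on the log2 scale (SE 0.13, adjusted p = 0.00221). The difference between these changes was -5.02 on the log2 scale (SE 0.61, adjusted p = 0.000101).

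Ptch1 (chr13:63511533-63565520), the receptor, was at 55.8, 42.1, 33.7 and 39.6 CPM at 3 h and 20.4, 22.6, 20.9 and 24 CPM at 24 h, without overlap. It fell by 1.8-fold (log2 change -0.85, SE 0.12, adjusted p = 7.45e-05). Control buds went from 45.1 ± 14.5 CPM to 80.9 ± 13.7 CPM and the difference was -1.72 (SE 0.27, adjusted p = 0.000484). Hhip (chr8:79966115-80058006), which binds and traps hedgehog ligands, was at 14.2, 16, 8.19 and 13.4 CPM at 3 h and 4.77, 2.47, 6.47 and 3.31 CPM at 24 h. All 4 values at 24 h lay below all 4 at 3 h (log2 change -1.49, SE 0.28, adjusted p = 0.00134). The difference from control was -1.84 (SE 0.36, adjusted p = 0.00349).

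Of the 9 hedgehog targets measured, 3 fell (Gli1, Ptch1, Hhip) and 1 rose, with a median log2 change of -0.33; in control 3 of 10 rose and 1 fell, with a median of 0.35. The riser was Foxf2, a forkhead factor of limb and gut mesenchyme, at 20.2, 18.7, 9.25 and 13.7 CPM at 3 h and 35.4, 34.8, 29.4 and 31.5 CPM at 24 h (log2 change 1.19, SE 0.18, adjusted p = 0.000289). Its difference from control did not pass (0.65, SE 0.28, adjusted p = 0.253). Foxc2, another forkhead target, rose in control (log2 change 0.52, SE 0.13, adjusted p = 0.0204) and stood at 15.6 ± 3.07 CPM and 14.9 ± 1.47 CPM in 10 µM; the difference did not pass (adjusted p = 0.195).

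Ihh (chr1:74945315-74951672) was at 31.7, 22.7, 23.4 and 28.7 CPM at 3 h and 144, 148, 119 and 111 CPM at 24 h, so that the lowest value at 24 h lay far above the highest at 3 h. The log2 change was 2.41 (SE 0.11, adjusted p = 3.21e-09). In control Ihh went from 27 ± 3.34 CPM to 36.8 ± 9.21 CPM. The 10 µM change minus the control change was 1.94 (SE 0.17, adjusted p = 8.51e-08). Of the 7 ligand and release genes measured, 3 rose in 10 µM and none fell. Leaving out replicate 1 at 3 h raised that count to 6, and replicates 1 and 2 alone gave 1.

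The co-receptors Cdon, Boc and Gas1, which help the ligand reach Patched, rose together by small amounts. Gas1 went from 503 to 594 CPM at 3 h to 681 to 795 CPM at 24 h (log2 change 0.55, SE 0.08, adjusted p = 8.39e-05), Cdon changed by 0.56 (SE 0.08, adjusted p = 0.000116) and Boc by 0.56 (SE 0.08, adjusted p = 9.89e-05). None of the 3 differed from control past the threshold (adjusted p = 0.0543 for Gas1, 0.0628 for Cdon and 0.573 for Boc), but with DESeq2 Gas1 and Cdon did (adjusted p = 0.0103 and 0.0165). Among the transducers, Sufu, the inhibitor that holds GLI proteins in the cytoplasm, fell by a small amount (log2 change -0.33, SE 0.07, adjusted p = 0.00151). Smo, Gli2 and Gli3 did not pass, with log2 changes of 0.05 (adjusted p = 0.609), -0.05 (0.593) and -0.08 (0.386); by library totals alone Gli3 passed as lower (adjusted p = 0.0463). Of the 13 receptors and transducers measured, 3 rose and 2 fell, a share near the 31.7% over all genes. Their log2 changes ran from -1.76 to 0.56. The difference from control was lower for 1 of 13, beside 1.61% of all genes, and higher for 0.

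**Figure D1:**
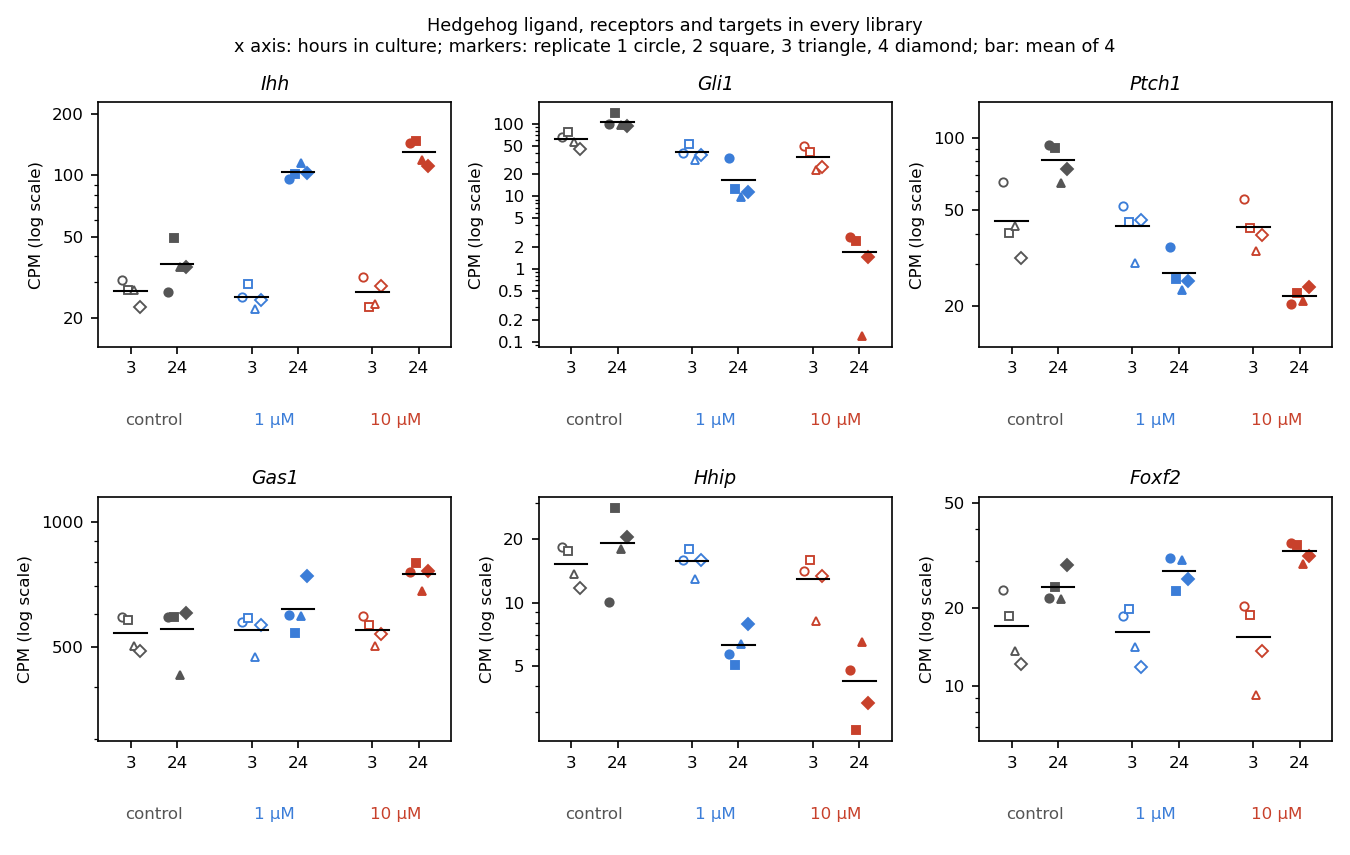
CPM on a log axis of 6 hedgehog genes in each of the 24 libraries, by hours in culture and dose; points are single libraries, marker shapes are replicates and bars are means of 4. Gli1, Ptch1 and Hhip are lower at 24 h than at 3 h in 10 µM (red), Gli1 and Ptch1 are higher at 24 h in control (grey), and Ihh is higher at 24 h in both BPDP doses.

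Mitotic and replication genes fell in 10 µM BPDP, and fell further than in control. All 22 mitotic genes measured fell, with a median log2 change of -1.77, and all 18 genes of the start of S phase and DNA replication fell, with a median of -1.09. The median over all genes was -0.01. In control the same 22 also fell, with a median of -0.83, and 15 of 18 fell with a median of -0.52. The difference was tested for each gene: all 22 mitotic genes and 15 of 18 replication genes fell further in 10 µM than in control. The counts in 10 µM were 22 and 18 in every alternative run, those that left out 1 library or used 2 replicates included.

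Mki67 (chr7:135689788-135716379), the coat protein gene of mitotic chromosomes and a marker of cycling cells, was at 270, 299, 335 and 283 CPM at 3 h and 75.3, 81.5, 77.7 and 82.9 CPM at 24 h. The ranges were far apart, and the 4 values at 24 h lay close together. Its log2 change was -1.80 (SE 0.08, adjusted p = 3.21e-09). Control went from 256 ± 19.8 CPM to 147 ± 13 CPM. Between 10 µM and control the changes differed by -1.02 (SE 0.12, adjusted p = 1.57e-05). Plk1, a mitotic kinase, was at 72.4, 72.9, 79.9 and 90.4 CPM at 3 h and 22, 16, 19.7 and 19.8 CPM at 24 h (log2 change -1.92, SE 0.11, adjusted p = 9.65e-09, difference -0.93, SE 0.13, adjusted p = 8.67e-05). Cenpe, a kinetochore motor, fell by 3.76-fold, Kif11, the spindle pole motor, by 3.71-fold, and Aurkb, the kinase of the chromosomal passenger complex, by 3.55-fold, and the difference from control passed for each (adjusted p = 3.56e-05, 1.96e-05 and 0.000639).

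Among the replication genes, Cdc6, which loads the replicative helicase, was at 26.7, 25.6, 23.6 and 24.6 CPM at 3 h and 7.89, 6.74, 5.68 and 7.63 CPM at 24 h (log2 change -1.74, SE 0.13, adjusted p = 7.67e-08). Its groups did not overlap, and the difference from control was -1.12 (SE 0.17, adjusted p = 0.000229). Mcm5, a helicase subunit, fell by 3.04-fold (difference -0.84, SE 0.16, adjusted p = 0.00177). Rrm2, the ribonucleotide reductase subunit that limits deoxynucleotide supply, fell by 2.99-fold (difference -1.02, SE 0.14, adjusted p = 9.89e-05). Replication-dependent histone genes made up 7 of the 10 steepest falls that the naming rule took, and Hist1h2ag (a core histone gene) went from 3.05, 3.33, 5.51 and 5.97 to 0.352, 0.225, 0.0611 and 0.254 CPM. Most mRNAs of these genes lack a poly(A) tail, and the libraries were made by poly(T) capture; the part of that in these low levels was not tested.

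Ccnd1, the cyclin that carries mitogen signals into G1, was at 129, 154, 138 and 142 CPM at 3 h and 65.3, 70.8, 66 and 78.8 CPM at 24 h, a fall of 1.87-fold (log2 change -0.90, SE 0.08, adjusted p = 9.18e-07). Control stood at 176 ± 8.1 CPM and 188 ± 29.3 CPM. The time changes differed by -1.02 (SE 0.15, adjusted p = 0.000122). Cdkn1a, the p21 inhibitor of cyclin-dependent kinases, rose by 2.02-fold in 10 µM and by 2-fold in control, with a difference of 0.00 (SE 0.15, adjusted p = 0.994). Cdkn1b did not pass (log2 change -0.06, SE 0.07, adjusted p = 0.589). Of the 11 cyclin D genes, partners and inhibitors measured, 4 rose and 4 fell, beside 16.8% and 14.9% of all genes. In control 3 of the 11 rose and none fell, beside 5.45% and 4.1%.

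**Figure D2:**
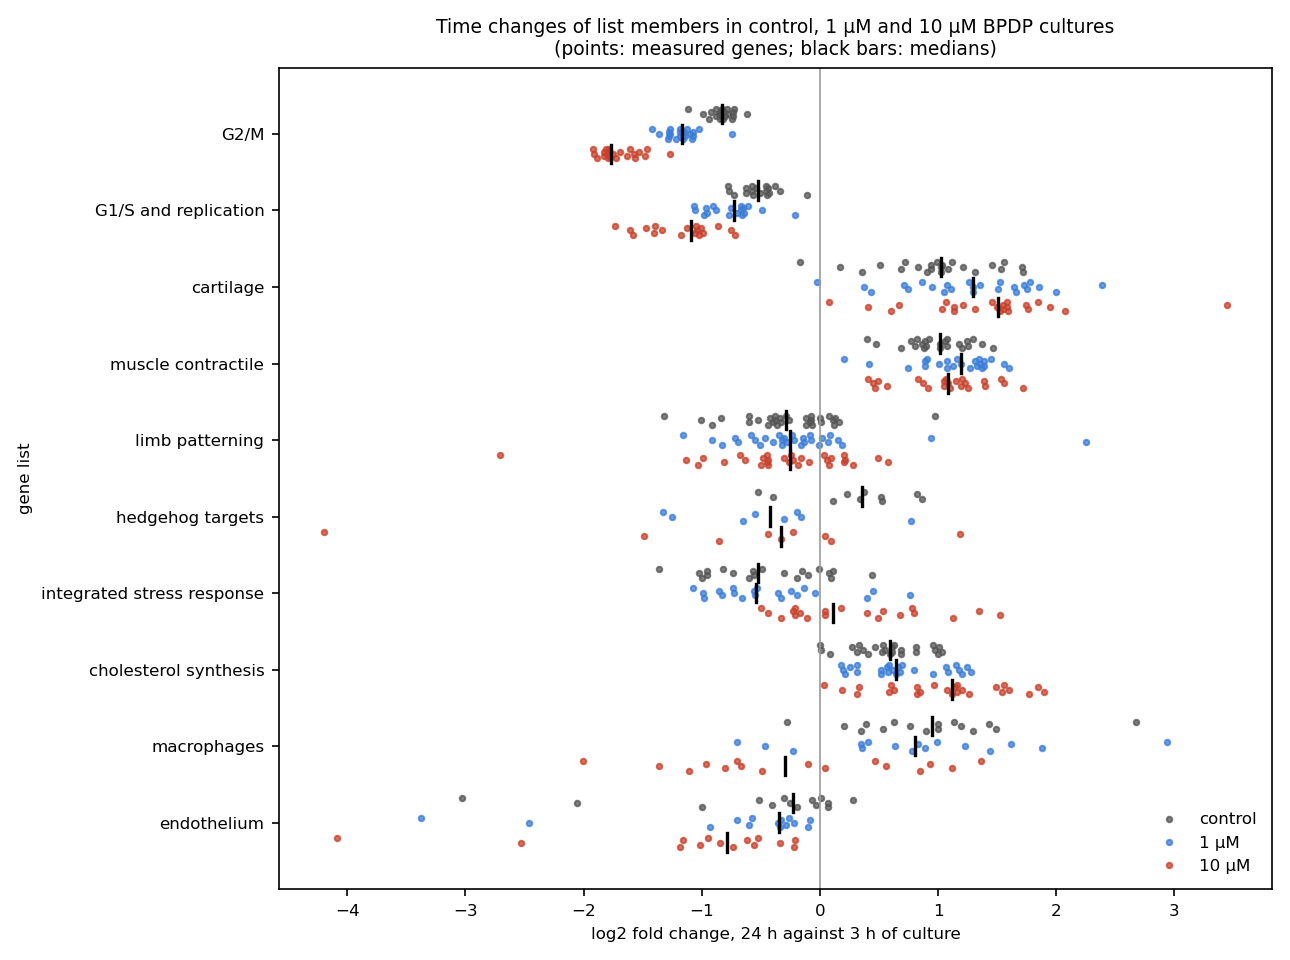
Log2 fold change from 3 h to 24 h of the measured members of 10 gene lists in control (grey), 1 µM (blue) and 10 µM (red) buds; each point is a gene and each black bar the median. The mitotic median is -1.77 in 10 µM against -0.83 in control, cartilage and muscle medians lie right of 0 in all 3, and macrophage medians lie right of 0 in control (0.95) and left in 10 µM (-0.30).

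Cartilage genes rose. Of 24 measured, 22 rose in 10 µM and none fell, with a median log2 change of 1.51; in control 17 of 23 rose, with a median of 1.02. In bulk tissue, more cells of a type and more RNA per cell cannot be told apart, here and for every cell type below. Col2a1 (chr15:97975602-98004695), type II collagen, was at 3514, 2579, 2044 and 2417 CPM at 3 h and 8519, 8183, 6154 and 6454 CPM at 24 h, a rise of 3-fold (log2 change 1.59, SE 0.15, adjusted p = 1.5e-06). The difference from control did not pass (0.56, SE 0.22, adjusted p = 0.206). Susd5 was the 1 cartilage gene whose rise was larger in 10 µM than in control: it was at 60.1, 53, 40.7 and 49.5 CPM at 3 h and 189, 200, 162 and 175 CPM at 24 h, with a difference of 0.73 (SE 0.17, adjusted p = 0.0172), which by library totals alone had an adjusted p of 0.0975.

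Matn1, a cartilage matrix adaptor protein, was at 170, 112, 66.4 and 90.6 CPM at 3 h and 487, 445, 251 and 271 CPM at 24 h (log2 change 1.84, SE 0.35, adjusted p = 0.00862), and replicates 1 and 2 were above replicates 3 and 4 at both times. The same order held for Matn3, at 42.4, 32.3, 7.77 and 13.7 CPM at 3 h and 136, 146, 40.9 and 54.3 CPM at 24 h; its groups overlap and the rise did not pass (log2 change 2.07, SE 0.67, adjusted p = 0.0623), but it passed with the replicate block (adjusted p = 1.165e-11). Sox9, the transcription factor that specifies chondrocytes, did not pass either (528 ± 47.2 CPM and 519 ± 50.3 CPM, log2 change 0.08, SE 0.10, adjusted p = 0.554).

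Of 13 hypertrophic chondrocyte genes measured, 8 rose and none fell (median 1.15, control 0.93). Col10a1 (chr10:34389981-34397085), type X collagen, was at 16.4, 6.62, 2.54 and 4.44 CPM at 3 h and 141, 167, 46.8 and 35.6 CPM at 24 h, again with replicates 1 and 2 highest at 24 h. Its log2 change was 3.80 (SE 0.79, adjusted p = 0.0127). Control went from 8.16 ± 5.91 CPM to 80 ± 71.3 CPM and the difference was 0.48 (SE 1.12, adjusted p = 0.904). Panx3, a channel protein of prehypertrophic cells, rose (log2 change 1.56, SE 0.33, adjusted p = 0.00742), as did Alpl, alkaline phosphatase (1.15, SE 0.24, adjusted p = 0.00393). Mmp13, the collagenase of late hypertrophic cartilage, had 2, 2, 0 and 2 counts at 3 h and 171, 194, 12 and 37 counts at 24 h (adjusted p = 0.00306); no fold is given for so few counts.

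The Runx factors, which drive hypertrophy and bone formation, did not rise. Runx2 stood at 38.4, 30.9, 21 and 23 CPM at 3 h and 32, 34.7, 26.4 and 21 CPM at 24 h (log2 change 0.12, SE 0.19, adjusted p = 0.663), against a rise in control from 33.8 ± 6.92 CPM to 51.3 ± 8.31 CPM (log2 change 0.62, SE 0.14, adjusted p = 0.011); the difference did not pass (-0.50, SE 0.24, adjusted p = 0.329). Runx3 was at 17.3, 18.5, 13 and 15.3 CPM at 3 h and 14, 11.9, 10.1 and 9.22 CPM at 24 h (log2 change -0.39, SE 0.15, adjusted p = 0.064), and with the replicate block it fell (adjusted p = 0.0338). Control Runx3 stood at 28.7 ± 6.79 CPM and 42.5 ± 10.9 CPM. The difference of -0.99 (SE 0.27, adjusted p = 0.0407) lost its call in 10 of the 16 fits that left out 1 compared library (adjusted p from 0.0123 to 0.0918). Sp7, the osteoblast factor osterix, did not pass in 10 µM (log2 change 0.26, SE 0.21, adjusted p = 0.38) and rose in control (0.72, SE 0.20, adjusted p = 0.0422); the difference did not pass (adjusted p = 0.582).

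In control 4 of 14 osteoblast genes measured rose and none fell (median 0.51), beside 5.45% and 4.1% of all genes. In 10 µM 5 of 14 rose and 3 fell (median 0.53), beside 16.8% and 14.9%. Col1a1, type I collagen, rose from 2094 ± 412 CPM to 3408 ± 769 CPM (log2 change 0.81, SE 0.16, adjusted p = 0.00152). Dlx3, a homeobox gene of early bone and ectoderm, fell by 1.69-fold (log2 change -0.76, SE 0.12, adjusted p = 0.00023), and its relatives Dlx5 and Dlx6 were the other 2 that fell. Of 18 joint and tendon genes, 9 rose and 2 fell, beside 16.8% and 14.9% of all genes. In control none rose and 2 fell, beside 5.45% and 4.1%. The difference was higher in 10 µM for 4 of the 18: Gdf5, Wnt16, Sfrp2 and Erg. Gdf5, the growth factor of the forming joint, was at 54.5, 67.5, 71.4 and 71.8 CPM at 3 h and 67.8, 82.7, 65.2 and 69.7 CPM at 24 h, overlapping and without a call (adjusted p = 0.149). Control fell from 77.8 ± 12.3 CPM to 46.3 ± 8.91 CPM. The 10 µM change minus the control change was 0.93 (SE 0.18, adjusted p = 0.00291). Sfrp2, a secreted Wnt inhibitor, was at 149, 144, 145 and 151 CPM at 3 h and 210, 237, 224 and 256 CPM at 24 h without overlap. Between 10 µM and control the changes differed by 0.92 (SE 0.15, adjusted p = 0.000549). Wnt16, a joint Wnt ligand, rose (log2 change 0.97, SE 0.22, adjusted p = 0.00276, difference 1.55, SE 0.31, adjusted p = 0.00286).

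Contractile muscle genes rose in both 10 µM and control buds. Of 23 contractile genes measured, 21 rose in 10 µM (median 1.09) and 21 in control (median 1.01), and none differed between them past the threshold. Acta1, skeletal alpha-actin, was at 183, 207, 155 and 183 CPM at 3 h and 558, 390, 530 and 504 CPM at 24 h, a rise of 2.94-fold (log2 change 1.56, SE 0.12, adjusted p = 2.12e-07); the difference from control was 0.08 (SE 0.20, adjusted p = 0.906). Tnnt2, a troponin of embryonic muscle, rose by 2.9-fold (adjusted p = 5.47e-09). The giant proteins Ttn and Ryr1 were the 2 that did not pass (adjusted p = 0.0592 and 0.112). Replicate 1 at 3 h was high for both (341 and 93.1 CPM), and without it the adjusted p was 1.9e-06 for Ttn and 8.14e-05 for Ryr1; with the replicate block it was 0.0012 and 0.00237. The myogenic factors were mixed. Of 14 measured in 10 µM, 5 rose and 1 fell (median 0.05), beside 16.8% and 14.9% of all genes. In control 5 of 15 rose and 0 fell (median 0.24). The difference from control was higher for 1 of 15 and lower for 1. Mef2c, a partner of the myogenic factors that is also made in hypertrophic cartilage, rose (log2 change 0.92, SE 0.07, adjusted p = 1.72e-07).

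**Figure D3:**
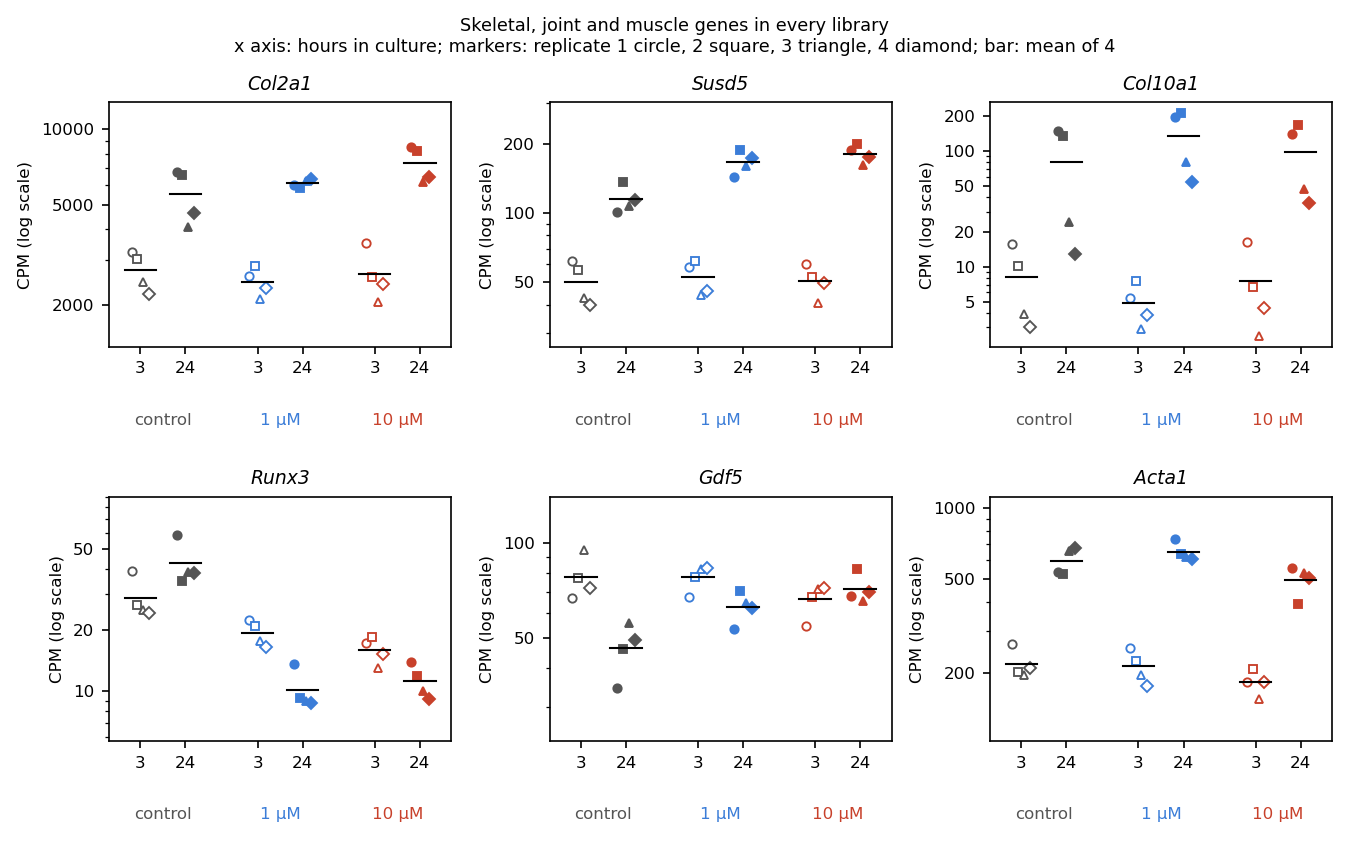
CPM on a log axis of cartilage, hypertrophic, joint and muscle genes in each of the 24 libraries, by hours in culture and dose; marker shapes are replicates and bars are means of 4. Col2a1, Susd5, Col10a1 and Acta1 are higher at 24 h in every dose, replicates 1 and 2 lie highest for Col10a1 at 24 h in every dose, and Gdf5 is lower at 24 h in control while its 10 µM values overlap.

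Targets of the integrated stress response, in which the factor ATF4 turns on amino acid transport and synthesis when translation is slowed, gave more rises and fewer falls in 10 µM than in control. Of 20 measured, 9 rose and 3 fell in 10 µM (median 0.11), against 1 and 11 in control (median -0.53) and 2 and 10 in 1 µM (median -0.54). With replicates 1 and 2 alone 5 rose in 10 µM, and in the fit of all 24 libraries 1 fell. The difference from control was higher for 9 of 20 and lower for none. Trib3 (chr2:152337422-152344032), a pseudokinase induced by this response, was at 32.1, 39.2, 30.1 and 40.3 CPM at 3 h and 75.2, 44.6, 105 and 61.2 CPM at 24 h, with every 24 h value above the 3 h values. Its rise of 1.12 (SE 0.28, adjusted p = 0.0204) lost the call with the replicate block (adjusted p = 0.121) and without replicate 1 at 3 h (0.0679), replicate 3 at 3 h (0.0633) or replicate 1 at 24 h (0.052). In control it fell from 28.1 ± 2.77 CPM to 14.3 ± 4.73 CPM. The time changes differed by 2.08 (SE 0.37, adjusted p = 0.00222).

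Chac1 (chr2:119351229-119354381), an enzyme that breaks down glutathione, was at 35.6, 45.2, 26.3 and 32.4 CPM at 3 h and 36.6, 22.5, 46.8 and 40.6 CPM at 24 h, overlapping and without a call (adjusted p = 0.631). Control fell from 25.5 ± 2.47 CPM to 9.79 ± 0.763 CPM. The 10 µM change minus the control change was 1.53 (SE 0.26, adjusted p = 0.000688). Slc7a5, the large neutral amino acid transporter, showed the same pattern, with 228, 288, 277 and 267 CPM at 3 h and 260, 184, 323 and 246 CPM at 24 h (adjusted p = 0.881) and a control log2 change of -0.95 (SE 0.11, adjusted p = 0.000292). Between 10 µM and control the changes differed by 0.99 (SE 0.18, adjusted p = 0.00165). Slc3a2, its heavy chain partner, named after its values were seen, rose by 1.6-fold in 10 µM (log2 change 0.68, SE 0.09, adjusted p = 3.61e-05, difference 0.83, SE 0.18, adjusted p = 0.00928). Nupr1, a small stress chromatin protein, was at 7.2, 5.3, 5.58 and 5.62 CPM at 3 h and 15, 13.7, 22.7 and 11.8 CPM at 24 h (log2 change 1.53, SE 0.20, adjusted p = 3e-05), and control did not pass (adjusted p = 0.815). The time changes differed by 1.41 (SE 0.33, adjusted p = 0.013). Atf3 rose by 1.74-fold and Atf5 by 2.54-fold, 2 transcription factors downstream of ATF4, with differences of 1.61 (SE 0.38, adjusted p = 0.0186) and 0.90 (SE 0.21, adjusted p = 0.0161).

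The chaperones of the endoplasmic reticulum moved little. Of 15 measured, 6 rose and 1 fell, with a median of 0.20, and the 6 became 1 when all 24 libraries shared 1 fit and also 1 by library totals alone. Without replicate 3 or 4 at 3 h, or without replicate 2 or 4 at 24 h, 3 rose. Hspa5, the main chaperone, stood at 622 ± 51.3 CPM and 654 ± 28.9 CPM (adjusted p = 0.088). Of 15 p53 targets, 11 rose and none fell (median 0.75), beside 16.8% and 14.9% of all genes. In control 4 rose (median 0.30), beside 5.45% of all genes. With replicates 1 and 2 alone 5 of the targets rose in 10 µM. Against control 2 of 15 were higher. Eda2r, a death receptor, was at 2.19, 2.02, 0.918 and 1.39 CPM at 3 h and 5.63, 4.44, 5.62 and 4.83 CPM at 24 h (log2 change 1.75, SE 0.28, adjusted p = 0.000221), and control rose too (1.29, SE 0.28, adjusted p = 0.0111). The differences of Eda2r and Fas did not pass (adjusted p = 0.645 and 0.632). Fas, another death receptor, rose (log2 change 1.57, SE 0.40, adjusted p = 0.00692), and Bax, which opens mitochondria, did not pass (0.15, SE 0.08, adjusted p = 0.15). Gdf15, a stress cytokine that both p53 and ATF4 induce, was at 1.09, 1.41, 0.847 and 1.46 CPM at 3 h and 8.44, 6.86, 7.08 and 3.69 CPM at 24 h, without overlap. The log2 change was 2.53 (SE 0.30, adjusted p = 1.19e-05) and the difference from control 3.15 (SE 0.78, adjusted p = 0.0225); the difference lost its call without control replicate 3 at 3 h (adjusted p = 0.0524), 10 µM replicate 3 at 3 h (0.0539) or 10 µM replicate 1 at 24 h (0.0526), and in the fit of only the 16 libraries compared (0.0574).

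Of 8 genes of the aryl hydrocarbon receptor, which senses planar xenobiotics, 2 rose more than in control. Cyp1b1 (chr17:79706953-79715041), a cytochrome P450, was at 10.9, 9.04, 16.9 and 14.1 CPM at 3 h and 33.9, 45.6, 80.9 and 57.5 CPM at 24 h. Its log2 change was 2.22 (SE 0.34, adjusted p = 0.00215) and the difference 2.07 (SE 0.35, adjusted p = 0.0011). In control it stood at 31.6 ± 6.51 CPM and 34.5 ± 7.76 CPM, so the 10 µM mean lay below the control mean at 3 h and above it at 24 h. Ahrr, the repressor of the receptor, was at 5.59, 2.32, 4.94 and 1.73 CPM at 3 h and 9.64, 9.1, 10.3 and 7.57 CPM at 24 h (log2 change 1.45, SE 0.30, adjusted p = 0.00182) against 6.1 ± 1.78 CPM and 3.44 ± 1.45 CPM in control, a difference of 2.26 (SE 0.39, adjusted p = 0.000651). Hmox1, heme oxygenase, rose (log2 change 0.61, SE 0.12, adjusted p = 0.00149); its difference of 0.71 (SE 0.17, adjusted p = 0.0191) lost the call without control replicate 1 at 3 h (adjusted p = 0.0506) or without 10 µM replicate 3 at 3 h (0.0539) or at 24 h (0.0582), and by library totals alone (0.0509). It was the 1 of 14 NRF2 and oxidative stress genes whose difference passed.

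Cholesterol synthesis genes rose under 10 µM BPDP and in control. Of 25 measured, 22 rose in 10 µM (median 1.12), 20 in 1 µM (median 0.65) and 15 in control (median 0.59). The difference from control was higher for 5 of 25, among them Msmo1, Fdft1, Cyp51 and Nsdhl, the last 3 named after their values were seen. Msmo1, a sterol C4 demethylase, was at 31.7, 32.7, 35.6 and 39.2 CPM at 3 h and 111, 107, 111 and 112 CPM at 24 h (difference 0.81, SE 0.19, adjusted p = 0.0142), and Fdft1, squalene synthase, rose by 2.24-fold (difference 0.63, SE 0.13, adjusted p = 0.00364). The differences of Cyp51 and Nsdhl, 0.55 and 0.74, lost their calls in 9 and 11 of the 16 fits that left out 1 compared library, and also by library totals alone (adjusted p = 0.121 and 0.0863). In control none of 25 glycolysis and hypoxia genes passed (median 0.50). In 10 µM 6 rose and 5 fell (median 0.14), beside 16.8% and 14.9% of all genes, and 12 rose with the replicate block. None of the 25 differed from control past the threshold, and every difference lay below 0, from -1.20 to -0.10. Gapdh was at 933, 1370, 1203 and 1245 CPM at 3 h and 638, 745, 641 and 717 CPM at 24 h (log2 change -0.69, SE 0.12, adjusted p = 0.000437), with a difference from control that did not pass (adjusted p = 0.383); in the fit of all 24 libraries none of the 25 rose and 2 fell.

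**Figure D4:**
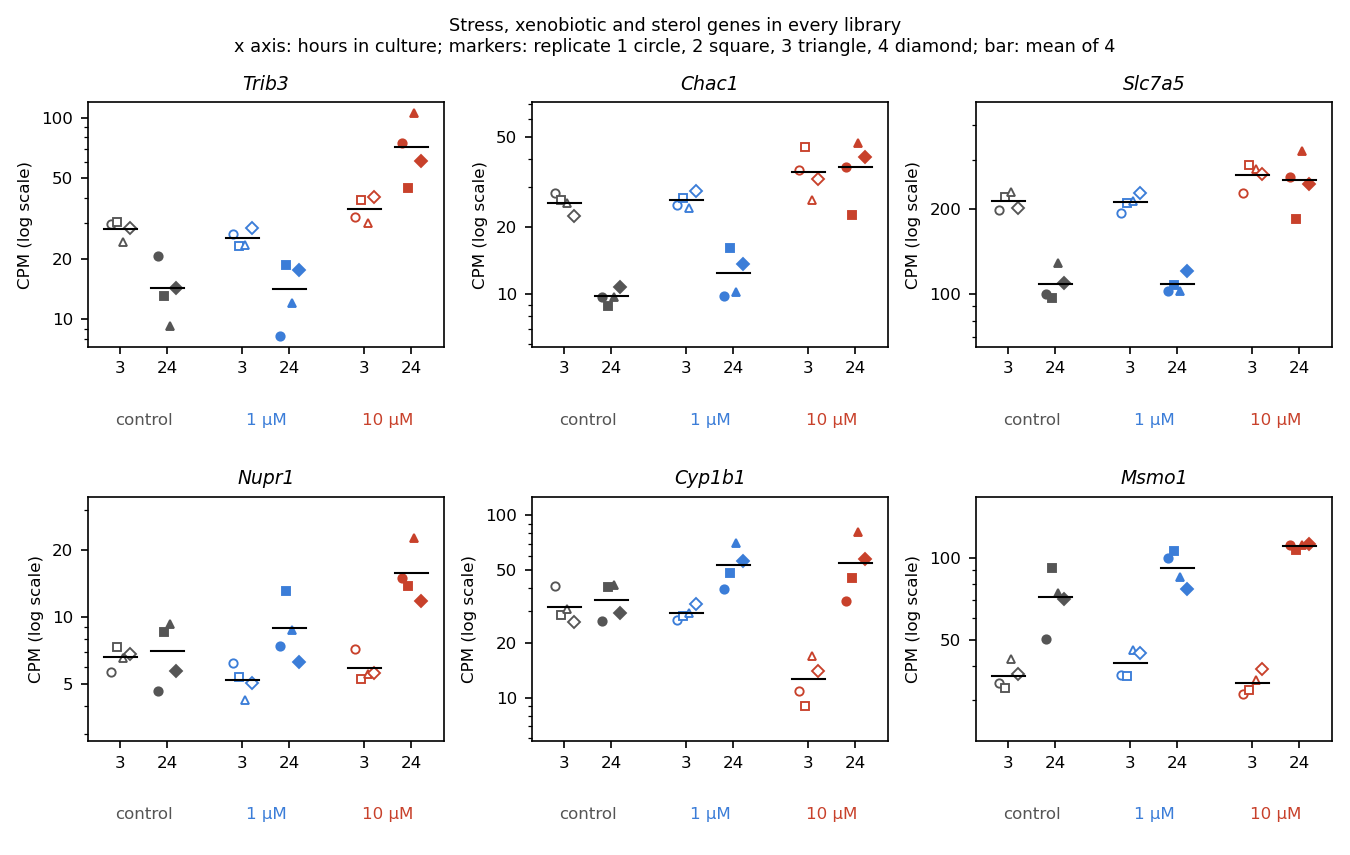
CPM on a log axis of stress, xenobiotic and sterol genes in each of the 24 libraries, by hours in culture and dose; marker shapes are replicates and bars are means of 4. Trib3, Chac1 and Slc7a5 are lower at 24 h than at 3 h in control and 1 µM, while in 10 µM Trib3 is higher and the values of Chac1 and Slc7a5 overlap; the 10 µM values of Cyp1b1 at 3 h lie below the others.

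Macrophage genes rose in control and split in 10 µM. In control 10 of 16 rose and none fell (median 0.95); in 10 µM 4 rose and 5 fell (median -0.30). Their difference was lower for 6 of 16. The summed level of the 16 ran from 108 to 134 CPM (median 125) at 3 h and from 84.8 to 130.04 CPM (median 92.7) at 24 h in 10 µM, and from 114 to 150 CPM (median 123) and 217 to 289 CPM (median 239) in control; no marker was at 0 in all libraries of a group. Csf1r, the receptor that macrophages need to live, was at 17.5, 18.3, 16.1 and 16.1 CPM at 3 h and 8.24, 9.78, 5.25 and 5.91 CPM at 24 h, without overlap (log2 change -1.11, SE 0.17, adjusted p = 0.000165). Control went from 19 ± 3.27 CPM to 27 ± 4.55 CPM. Between 10 µM and control the changes differed by -1.65 (SE 0.27, adjusted p = 0.000409). C1qa, a complement chain made by tissue macrophages, was at 10.9, 15.8, 12.4 and 14.9 CPM at 3 h and 4.57, 6.97, 3.91 and 4.07 CPM at 24 h (log2 change -1.36, SE 0.20, adjusted p = 0.000116, difference -2.27, SE 0.28, adjusted p = 3.56e-05), and C1qb, its partner chain, did not pass in 10 µM (adjusted p = 0.0778, and 0.0372 with the replicate block) and had a difference of -1.63 (SE 0.24, adjusted p = 0.000138). Cx3cr1, the fractalkine receptor, fell 4-fold (log2 change -2.0015, SE 0.32, adjusted p = 0.000397, difference -2.36, SE 0.41, adjusted p = 0.00135).

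Not all macrophage genes followed. Lyz2, lysozyme, rose in 10 µM from 5.03 ± 1.98 CPM to 10.2 ± 2.93 CPM (log2 change 1.12, SE 0.29, adjusted p = 0.0102) but by less than in control (2.67, SE 0.18, adjusted p = 5.93e-06), with a difference of -1.57 (SE 0.32, adjusted p = 0.00478). Cd68, a lysosomal protein of macrophages, was at 8.93, 8.69, 6.42 and 7.7 CPM at 3 h and 20.8, 21.1, 18.5 and 15.6 CPM at 24 h (log2 change 1.36, SE 0.14, adjusted p = 3.57e-06). The difference from control did not pass (-0.08, SE 0.23, adjusted p = 0.924). Among the 10 steepest rises in 10 µM were genes that macrophages and osteoclasts can make. Gpnmb, a lysosomal membrane glycoprotein, was at 0.921, 1.52, 0.706 and 0.694 CPM at 3 h and 112, 95.4, 42.1 and 69 CPM at 24 h (log2 change 6.42, SE 0.44, adjusted p = 4.24e-05), and Mmp9, a gelatinase, was at 13.1, 8.38, 7.69 and 10.3 CPM at 3 h and 146, 144, 53.3 and 56.2 CPM at 24 h (log2 change 3.44, SE 0.46, adjusted p = 0.00185). Mmp12, macrophage elastase, had 0, 1, 0 and 0 counts at 3 h and 202, 202, 25 and 78 counts at 24 h (adjusted p = 6.71e-05). For Gpnmb, Mmp9 and Mmp12, replicates 1 and 2 at 24 h stood above replicates 3 and 4. None of the 3 differed from control past the threshold (adjusted p = 0.275, 0.155 and 0.95). Ptgs2, the inducible cyclooxygenase, rose from 0.173, 0.303, 0.141 and 0.0694 to 11.5, 8.15, 3.54 and 4.71 CPM (adjusted p = 7.19e-07), with the same order at 24 h and without a difference from control past the threshold (3.43, SE 1.17, adjusted p = 0.137).

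Endothelial genes fell. Of 14 measured, 11 fell in 10 µM and none rose (median -0.79), beside 14.9% and 16.8% of all genes. In control 3 fell (median -0.22), beside 4.1% of all genes. The difference was lower for 6 of 14. The summed level went from 518 to 629 CPM at 3 h to 241 to 301 CPM at 24 h in 10 µM, and from 520 to 611 CPM to 375 to 462 CPM in control, with no marker at 0 in all libraries of a group. Aplnr (chr2:85136225-85139923), the apelin receptor of growing vessels, was at 68.4, 76.8, 61.9 and 79 CPM at 3 h and 3.42, 3.99, 3.05 and 5.21 CPM at 24 h, a fall of 17-fold (log2 change -4.09, SE 0.15, adjusted p = 2.82e-10). It also fell in control, from 68.1 ± 2.19 CPM to 8.27 ± 2.11 CPM. The time changes differed by -1.07 (SE 0.20, adjusted p = 0.00148). Plvap, a protein of vessel fenestrae, fell 5.79-fold with no difference from control past the threshold (adjusted p = 0.494). Flt1, a VEGF receptor, was at 20.8, 23.2, 13.8 and 17.5 CPM at 3 h and 8.39, 9.1, 4.46 and 8.9 CPM at 24 h (log2 change -1.18, SE 0.21, adjusted p = 0.000559). Control stood at 20.8 ± 2.48 CPM and 21.5 ± 6.35 CPM. The 10 µM change minus the control change was -1.26 (SE 0.29, adjusted p = 0.0142). Emcn, an endothelial sialomucin, did not pass (log2 change -0.22, SE 0.13, adjusted p = 0.216).

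**Figure D5:**
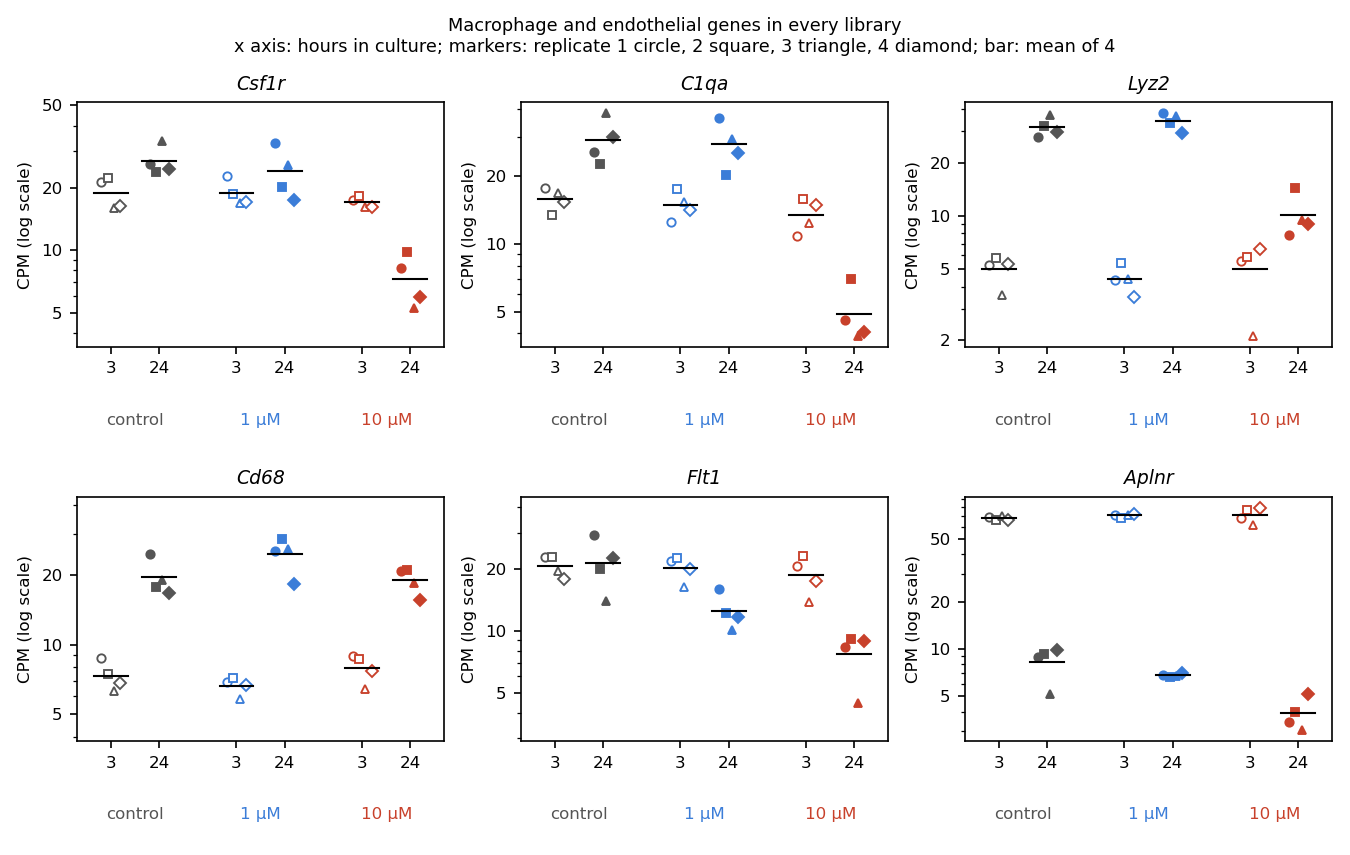
CPM on a log axis of macrophage (Csf1r, C1qa, Lyz2, Cd68) and endothelial (Flt1, Aplnr) genes in each of the 24 libraries, by hours in culture and dose; marker shapes are replicates and bars are means of 4. The means of Csf1r and C1qa are higher at 24 h in control and 1 µM and lower in 10 µM, whereas Cd68 is higher at 24 h in every dose and Aplnr lower.

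Epidermal, glial and red cell genes changed in part. In control 7 of 17 epidermal genes measured rose and none fell (median 0.80), beside 5.45% and 4.1% of all genes. In 10 µM 6 of 16 rose and 3 fell (median 0.23), beside 16.8% and 14.9%. With the replicate block 1 rose, without replicate 1 at 3 h 2 did, and without replicate 3 or 4 at 3 h, or 1, 2 or 3 at 24 h, 3 did. Krt14, the basal keratin, was at 211, 234, 207 and 268 CPM at 3 h and 520, 445, 491 and 377 CPM at 24 h (log2 change 1.10, SE 0.11, adjusted p = 4.1e-06), whereas its partner Krt5 did not pass (-0.20, SE 0.14, adjusted p = 0.317). The keratins of the first suprabasal layer varied: Krt10 was at 16.3, 17.5, 8.12 and 13 CPM at 3 h and 28.2, 44.6, 105 and 31 CPM at 24 h, with replicate 3 highest at 24 h. Its call (adjusted p = 0.0302) was lost with the replicate block (0.129) and in 5 of the 8 fits that left out 1 library. Krt1 did not pass (1.30, SE 0.59, adjusted p = 0.149). Control went from 32.4 ± 17.8 CPM to 470 ± 335 CPM, a difference that did not pass (adjusted p = 0.169). Of 12 Schwann cell and glial genes, 1 rose (S100b, log2 change 2.003, SE 0.30, adjusted p = 0.000224) and 5 fell, Sox10, the glial lineage factor, among them (-1.47, SE 0.21, adjusted p = 0.000101); none differed from control past the threshold. In control 2 of 10 erythroid genes fell (median -1.04), beside 4.1% of all genes. In 10 µM 3 of 10 fell (median -0.69), beside 14.9%. With the replicate block 7 fell in 10 µM, and without replicate 1 at 3 h 5 did. Alas2, the first enzyme of red cell heme synthesis, fell by 1.94-fold and Slc4a1, the anion exchanger, by 2.86-fold, with control log2 changes of -1.04 and -1.66.

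Genes that pattern the early limb fell in part. Of 30 measured, 14 fell (8 with replicates 1 and 2 alone) and 2 rose (1 without replicate 1 or 3 at 24 h), with a median of -0.25, against 7 and none of 31 in control (median -0.28), and none of 32 differed between the 2 past the threshold. Msx1, a homeobox gene of undifferentiated mesenchyme, was at 120, 108, 136 and 119 CPM at 3 h and 51.9, 52.4, 51.7 and 63.7 CPM at 24 h (log2 change -1.03, SE 0.09, adjusted p = 4.29e-07), and Alx4, an anterior homeobox gene, was at 21, 18.2, 16 and 23.5 CPM at 3 h and 7.43, 6.52, 8.24 and 11.1 CPM at 24 h (log2 change -1.14, SE 0.17, adjusted p = 0.000119). Fgf8, the growth factor of the apical ridge, fell from 1.5, 1.41, 1.34 and 1.6 to 0.1, 0.281, 0.244 and 0.191 CPM (adjusted p = 0.000448). Of 20 Hox genes 4 fell (Hoxc4, Hoxc5, Hoxd11 and Hoxd13), beside 14.9% of all genes, and 8 fell by library totals alone. None of 22 differed from control past the threshold.

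In lists of other pathways some members differed from control. Higher were 4 of 19 Wnt targets and antagonists, 3 of 21 BMP and TGF-beta genes and 1 of 15 matrix proteases and inhibitors, beside 0.983% of all genes. Lower were 2 of 15 Notch genes, beside 1.61% of all genes. None of 18 clock, 16 FGF and MAPK feedback and 16 retinoic acid genes passed. Of 19 Wnt targets and antagonists, 7 rose and 5 fell. The 4 with a higher difference were all secreted inhibitors (Sfrp2, Frzb, Wif1 and Dkk2, of which Wif1 and Dkk2 were named after their values were seen). Frzb was at 19.2, 18.7, 18.5 and 20.6 CPM at 3 h and 51.1, 51, 37.3 and 43.3 CPM at 24 h (log2 change 1.35, SE 0.11, adjusted p = 1.72e-07, difference 0.67, SE 0.14, adjusted p = 0.00478). Bmp6, a growth factor of hypertrophic cartilage, was at 7.14, 5.45, 5.15 and 5.83 CPM at 3 h and 8.69, 10.6, 8.37 and 9.86 CPM at 24 h (log2 change 0.78, SE 0.16, adjusted p = 0.00196) and its difference was 1.00 (SE 0.23, adjusted p = 0.0139). Of 15 Notch genes 4 fell and none rose (2 rose without replicate 1 at 3 h), while 3 rose in control. Nrarp, a Notch target that damps the pathway, was at 47.5, 55.1, 34.4 and 45 CPM at 3 h and 16.4, 21.1, 24.4 and 17.2 CPM at 24 h (log2 change -1.10, SE 0.16, adjusted p = 0.000121, difference -1.98, SE 0.41, adjusted p = 0.00941). Timp2, an inhibitor of matrix proteases, was at 315, 315, 284 and 295 CPM at 3 h and 570, 600, 496 and 523 CPM at 24 h, with a difference of 0.62 (SE 0.11, adjusted p = 0.00134). Of 18 clock genes 11 rose, Bhlhe41 by 3.2-fold (adjusted p = 1.16e-06), beside 16.8% of all genes. In control 3 rose, beside 5.45%. The median log2 change of the 18 was 0.52 in 10 µM and 0.54 in control.

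Some genes outside these lists were among those with the widest difference from control. Bcan, brevican, a proteoglycan, was at 1.61, 1.36, 1.2 and 1.39 CPM at 3 h and 9.44, 10, 5.86 and 11 CPM at 24 h (log2 change 2.80, SE 0.24, adjusted p = 3.44e-07), a difference of 2.003 (SE 0.49, adjusted p = 0.0197) that had an adjusted p of 0.0699 without control replicate 4 at 3 h. F3, tissue factor, was at 8.29, 6.11, 7.41 and 4.86 CPM at 3 h and 20.3, 21.6, 13.9 and 14.1 CPM at 24 h, with a difference of 1.59 (SE 0.30, adjusted p = 0.00145). Clic6, a chloride channel family member, fell from 4.38, 4.19, 2.54 and 4.44 to 0.653, 0.225, 0.366 and 1.27 CPM and stood at 5.56 ± 1.06 CPM and 6.74 ± 1.67 CPM in control, a difference of -2.83 (SE 0.45, adjusted p = 0.000374). Slco2b1, an organic anion transporter, fell by 3.69-fold, with a difference of -2.17 (SE 0.45, adjusted p = 0.00435).

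Against the time change in 1 µM BPDP, 38 of 16691 genes differed (0.228%), 12 higher (0.0719%) and 26 lower (0.156%) in 10 µM; with the replicate block 78 did. The low dose had moved the hedgehog genes in part. In 1 µM, Ihh rose from 25.4 ± 2.99 CPM to 104 ± 8.27 CPM (log2 change 2.03, SE 0.09, adjusted p = 1.39e-09), Ptch1 changed by -0.65 (SE 0.17, adjusted p = 0.0168) and Hhip by -1.33 (SE 0.16, adjusted p = 2.39e-05), and none of them differed from 10 µM past the threshold (differences 0.38, -0.20 and -0.16, adjusted p = 0.437, 0.876 and 0.939). Gli1 went from 40.4 ± 8.96 CPM to 16.9 ± 11.4 CPM in 1 µM without a call (adjusted p = 0.098); its difference from 10 µM was -2.94 (SE 0.62, adjusted p = 0.0537) and had an adjusted p of 0.0136 with the replicate block.

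The listed genes that differed between the doses came mainly from 3 lists. Of 20 stress response genes 4 were higher in 10 µM: Slc7a5 (difference 1.02, SE 0.18, adjusted p = 0.00954), Slc3a2 (1.01, SE 0.18, adjusted p = 0.0101), Trib3 (1.98, SE 0.37, adjusted p = 0.0242) and Chac1 (1.26, SE 0.26, adjusted p = 0.0312). Of 16 macrophage genes 5 were lower, among them C1qa (-2.25, SE 0.28, adjusted p = 0.000321), C1qb (-1.72, SE 0.24, adjusted p = 0.000852), Lyz2 (-1.82, SE 0.32, adjusted p = 0.00954) and Csf1r (-1.46, SE 0.27, adjusted p = 0.0105). Csf1r stood at 18.9 ± 2.8 CPM and 24.1 ± 6.85 CPM in 1 µM. Of 22 mitotic genes 4 fell further, Plk1 (-0.73, SE 0.13, adjusted p = 0.00888) and Cenpe (-0.69, SE 0.14, adjusted p = 0.0253) among them, and of 18 replication genes Rrm2 did (-0.67, SE 0.14, adjusted p = 0.0404). Calls against 1 µM were less stable for some of these genes: leaving out 1 compared library ended the call in 5 of 16 fits for Trib3, 8 for Cenpe and 12 each for Chac1, Rrm2 and Fdft1. Fdft1 (0.58, SE 0.13, adjusted p = 0.0477) was the 1 of 25 cholesterol genes, and Esam, an endothelial adhesion protein, the 1 of 14 endothelial genes.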

How the data were processed

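RNA of mouse limb bud cultures was sequenced in 24 libraries, 4 in each of 6 groups. The authors deposited raw read counts per gene, used here as whole counts; per the submitters' processing notes the tools included CASAVA 1.8, STAR 2.5, HTSeq 0.6.1 and DESeq2 2, with the mm10 genome. Strandedness is not given in the sources used here, so overlapping and antisense genes cannot be told apart. Columns were joined by gene ID into 25844 genes. A gene that a table did not list was set to 0 in its libraries (1908 genes at 24 h and 1590 at 3 h in 10 µM), and 50 per-sample columns were not used.

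Genes were filtered with edgeR 4.0.16 (minimum count 10, minimum total 15), scaled by TMM and tested with its robust quasi-likelihood test in R 4.3.3, with Benjamini-Hochberg adjustment over all genes and a threshold of 0.05. Each time comparison used its own 8 libraries; differences between time changes used all 24. SE is the log2 change divided by the root of F. Tested on simulated data, the 10 µM comparison (15214 genes) called 50.7% of 1.5-fold and 85.1% of 2-fold changes, and the difference from control (16446 genes) called 28.4% and 55.2%. Each simulation changed 67 genes by 1.5-fold and 67 by 2-fold, all above a floor on counts, with no split between replicates. Many more genes passed in the data, which moves the adjusted p, so these shares are not the power of the tests reported.

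Whether replicate numbers pair the 10 µM libraries cannot be told. Residual correlations between same-numbered libraries were 0.241, 0.162, 0.146 and 0.195, all over 0.1, but only 1 of the 4 libraries correlated best with its own number. The labels give no pairing. The main fits had no term for replicate number, and the replicate block added that term. In 10 µM 4897 genes passed without it and 5450 with it. No 2 replicates agreed within sampling noise (lowest chi-square per degree of freedom 4.91).

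The members and lists were chosen with earlier results of these data known. The text names a selection from up to 10 genes that rose or fell most among called genes with a mean of at least 50 counts, and from up to 4 called and 2 other members of each of 38 lists, all hedgehog genes and a few fixed ones. Slc3a2, Fdft1, Cyp51 and Nsdhl, and genes given by name without values, were chosen after their values were seen. Some genes of these lists are counted but not reported here by name.

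Alternatives were DESeq2 1.42.0, RLE scaling, no filter, the replicate block, all 24 libraries in 1 fit, only the 16 libraries compared, 2 replicates alone and leaving out each library. A term for replicates 1 and 2 against 3 and 4 and library totals without TMM were chosen after seeing the data.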

Additional observations from a re-analysis of the deposited data

Results flagged for a closer look

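In 13 of 204 groups of 4 values, a 10 µM library stood apart from the other 3 of its group by Dixon's criterion, and chance gives about 1 in 20. At 3 h these were Boc in replicate 1 (highest, 202 CPM), Sp7 in replicate 1 (highest, 15.5 CPM), Ttn in replicate 1 (highest, 341 CPM), Nupr1 in replicate 1 (highest, 7.20 CPM), Atf5 in replicate 2 (lowest, 51.1 CPM), Mmp12 in replicate 2 (highest, 0.0505 CPM) and Clic6 in replicate 3 (lowest, 2.54 CPM). At 24 h these were Rrm2 in replicate 2 (lowest, 24.4 CPM), Wnt16 in replicate 2 (highest, 12.1 CPM), Cyp51 in replicate 2 (lowest, 140 CPM), C1qb in replicate 2 (highest, 10.2 CPM), Flt1 in replicate 3 (lowest, 4.46 CPM) and Msx1 in replicate 4 (highest, 63.6 CPM). The CPM of Mmp12 in that library is 1 count.

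The time change in 10 µM differed from that in control by edgeR's test of the difference for 48 of the 102 genes described. The log2 difference was above 0 for Ihh (1.94), Susd5 (0.73), Gdf5 (0.93), Wnt16 (1.55), Sfrp2 (0.92), Trib3 (2.08), Chac1 (1.53), Atf3 (1.61), Nupr1 (1.41), Atf5 (0.90), Slc7a5 (0.99), Slc3a2 (0.83), Gdf15 (3.15), Hmox1 (0.71), Cyp1b1 (2.07), Ahrr (2.26), Msmo1 (0.81), Fdft1 (0.63), Cyp51 (0.55), Nsdhl (0.74), Frzb (0.67), Bmp6 (1.00), Timp2 (0.62), Bcan (2.003) and F3 (1.59). It was below 0 for Gli1 (-5.02), Ptch1 (-1.72), Hhip (-1.84), Mki67 (-1.02), Plk1 (-0.93), Cenpe (-1.10), Kif11 (-1.09), Aurkb (-0.99), Cdc6 (-1.12), Mcm5 (-0.84), Rrm2 (-1.02), Ccnd1 (-1.02), Runx3 (-0.99), Csf1r (-1.65), Cx3cr1 (-2.36), C1qa (-2.27), C1qb (-1.63), Lyz2 (-1.57), Aplnr (-1.07), Flt1 (-1.26), Nrarp (-1.98), Clic6 (-2.83) and Slco2b1 (-2.17).

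The time change in 10 µM differed from that in 1 µM for 12 of the 102 genes. The log2 difference was above 0 for Trib3 (1.98), Chac1 (1.26), Slc7a5 (1.02), Slc3a2 (1.01) and Fdft1 (0.58), and below 0 for Plk1 (-0.73), Cenpe (-0.69), Rrm2 (-0.67), Csf1r (-1.46), C1qa (-2.25), C1qb (-1.72) and Lyz2 (-1.82).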

How the results depend on the processing

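The count of genes that passed in 10 µM was 1071 with a change of at least 2-fold and 2113 with replicates 1 and 2 alone; in the other settings it ran from 4421 to 5523, and from 4062 to 5247 leaving out 1 library. No gene called in 10 µM changed sign in the settings that kept every library. In control, all 24 libraries in 1 fit gave 2739, and leaving out 1 library gave 791 (without control 3 h replicate 3) to 1600; without control 3 h replicate 4 it was 834. In 1 µM, leaving out 1 library gave 2345 to 3431, DESeq2 3879 and the replicate block 3658. The difference from control gave 673 genes with DESeq2, 617 with the replicate block and 332 to 537 leaving out 1 library. Same-numbered control libraries correlated at 0.0869 to 0.350, and whether the numbers pair them cannot be told from these values. With the replicate block the differences of Cdon (adjusted p = 0.0305), Gas1 (0.0118), Hist1h2ag (0.0347), Col2a1 (0.0346), Runx2 (0.0332) and Ptgs2 (0.0270) passed. The difference from 1 µM gave 153 genes with DESeq2, 78 with the replicate block, 74 with only the 16 libraries compared and 20 to 79 leaving out 1 library; it fell to 24 and 21 without 1 µM 3 h replicates 1 and 2, to 25 and 24 without 10 µM 3 h replicates 1 and 3, and to 20 without 1 µM 24 h replicate 3, and was 79 without 1 µM 24 h replicate 2. The cause of these shifts was not tested. Depth limits the low genes: 1 count is worth 0.0505 CPM in the deepest 10 µM library at 3 h. In 10 µM, replicates 1 and 2 alone ended the calls of Sufu, Wnt16, Fas, Gapdh, Alas2 and Bmp6 (adjusted p = 0.0583 to 0.147), and replicates 3 and 4 alone those of Trib3, Hmox1, Lyz2, Krt10 and Krt14 (0.0598 to 0.215). With only the 16 libraries compared, the differences of Runx3, Gdf15 and Cyp51 from control (0.0551 to 0.0576) and of Chac1 and Fdft1 from 1 µM (0.0813 and 0.0529) lost their calls.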
